A study of Cavia porcellus with 30 samples.

Results

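In the kidneys of guinea pigs given mercuric chloride, 38 of the 25824 transcripts measured had a lower mean level 33 h after the high dose while their means stayed close to vehicle after the low dose and at 9 h. They were chosen by their measured values. For each transcript, L is the log2 ratio of the mean level of the 5 treated animals to the mean level of the 5 vehicle animals of the same time, with 1 added to both means. A member had L of at most -0.8 with the high dose at 33 h and an absolute L under 0.3 with the low dose at 9 h, the high dose at 9 h and the low dose at 33 h. Levels are in TPM, the share of a transcript among all transcripts of a library, corrected for transcript length and scaled to the same total in every library.

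RNA of 30 male guinea pigs of the Hartley breed was sequenced. Each animal received 1 injection into the abdominal cavity, of saline (Vehicle, 1 ml/kg), 1.00 mg/kg HgCl2 (Low) or 1.50 mg/kg HgCl2 (High), and its kidney was taken after 9 or 33 h, which gave 6 groups of 5 animals. All animals were bought at 4 weeks of age, spent 7 days in their new housing, and carried a jugular vein catheter placed 7 days before the experiment, so the vehicle animals shared the surgery, the injection and the fasting before sampling. The comparisons asked how the kidney transcriptome changed with dose and with time after exposure.

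Mercuric chloride is a classic kidney toxicant. Mercuric ions bind thiol groups, enter the cells of the proximal tubule, largely as thiol conjugates and through organic anion and amino acid transporters, and injure these cells first. The proximal tubule reabsorbs most of the filtered solute and contributes most of the RNA of a whole kidney, which also holds other tubule segments, vessels, glomeruli and interstitial cells. In RNA from whole powdered kidney, fewer cells of a type and less RNA per cell cannot be told apart.

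The files name transcripts by Ensembl identifiers and pair none of them with a gene symbol. Of the 38 members, 6 were paired with rat genes through the readable tables of the study's supplement, which cover 2505 transcripts, and 32 were not. ENSCPOT00000041687.1 was paired with rat NCBI gene 79131, ENSCPOT00000013722.3 with 24479, ENSCPOT00000007878.3 with 24423 and ENSCPOT00000001230.3 with 63865. ENSCPOT00000040995.1 was paired with 29539 and 304500. ENSCPOT00000036095.1 was paired with 5 rat genes, 100125372, 113902, 291863, 29225 and 501232. Whether its reads are shared with similar guinea pig transcripts was not checked. Roles of the members are not described here, and the tissue was not checked against marker genes, because names were not matched.

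Falls with the high dose at 33 h were common, and those limited to that group by the rule were few. L was at most -0.8 in 977 transcripts, and the 38 members are 3.89% of these. Of the 977, 762 also had L of at most -0.3 with the high dose at 9 h, 607 with the low dose at 9 h and 725 with the low dose at 33 h. An absolute L under 0.3 was found for 172 of the 977 with the high dose at 9 h, for 310 with the low dose at 9 h and for 233 with the low dose at 33 h. Both 9 h contrasts were flat for 128 of the 977, and 88 of those 128 had L of at most -0.3 with the low dose at 33 h. The vehicle mean at 33 h was high enough for such a fall in 16869 transcripts, of which 9585 were flat in the 3 other contrasts.

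The members spanned a wide range of levels. In the vehicle animals at 33 h their mean TPM ran from 1.66 to 703, with a median of 19.4, against 10.1 for the other transcripts that could fall this far and 24.1 for the other 939 falls. Mean levels were under 10 TPM for 13 members, from 10 to under 100 TPM for 19, and 100 TPM or more for 6. Transcript lengths ran from 264 to 11024 bases with a median of 2096, against 2423 for the other transcripts that could fall. With the high dose at 33 h the members' mean TPM was 11.4% to 57.1% of vehicle, with a median of 47.2%. Summed over the 38 members, TPM came to 3190 ± 135 (SD, n = 5) in Vehicle 33 h, 3060 ± 724 in Low 33 h and 1667 ± 209 in High 33 h. At 9 h the sums were 3381 ± 185 for Vehicle, 3264 ± 224 for Low and 2974 ± 605 for High. The SD of the sum was widest in Low 33 h and High 9 h, although their means were near vehicle.

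**Figure D1:**
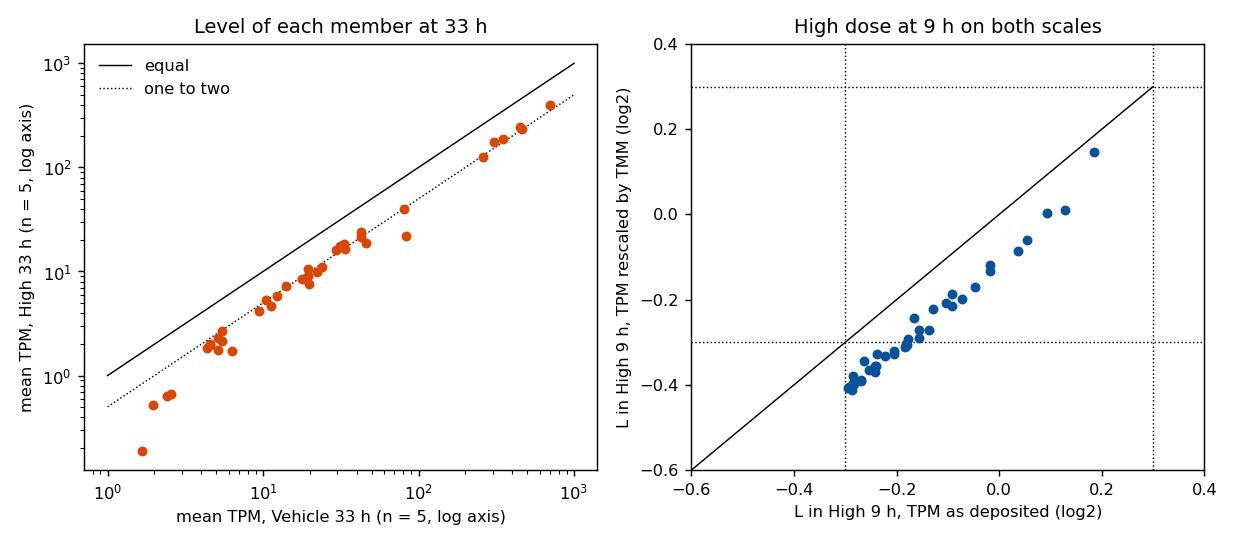
Left, mean TPM of each of the 38 members in Vehicle 33 h (horizontal) and High 33 h (vertical), both on log axes. Lines mark equal levels and a ratio of 1 to 2. Points lie on both sides of the lower line, from 11.4% to 57.1% of vehicle with a median of 47.2%. Right, L of each member with the high dose at 9 h from TPM as deposited (horizontal) and from TPM rescaled by TMM factors (vertical), with dotted lines at the limits of -0.3 and 0.3 and a solid line of equality: 20 members lie at or below -0.3 after rescaling.

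The lowest L belonged to ENSCPOT00000044366.1, at -1.87, and its values spread widely among dosed animals outside High 33 h. In animals 43 to 47 of Vehicle 33 h its TPM was 69.0, 102, 85.8, 78.7 and 77.8. In animals 53 to 57 of High 33 h it was 29.5, 16.7, 22.3, 18.2 and 22.5, which is 26.4% of vehicle by the means (82.7 ± 12.4 and 21.9 ± 4.97, SD, n = 5). Every High 33 h animal lay below all 25 others. In animals 48 to 52 of Low 33 h it was 38.8, 145, 129, 78.0 and 54.6, so the group's mean of 89.1 ± 46.3 lay between animals well below and well above vehicle. The high dose at 9 h gave the same picture, with 63.8, 142, 45.7, 125 and 56.1 in animals 38 to 42, against 91.0, 79.6, 104, 107 and 111 in animals 31, 32, 58, 59 and 60 of Vehicle 9 h. Animals 38, 40 and 42 were below all 5 vehicle animals of their time and animals 39 and 41 above them.

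ENSCPOT00000007129.3 had tight vehicle groups, at 18.9 ± 0.650 TPM (SD, n = 5) at 9 h and 19.7 ± 0.999 at 33 h. It stood at 7.49, 6.80, 8.17, 7.39 and 8.01 TPM in animals 53 to 57 of High 33 h, 38.3% of vehicle. In Low 33 h the 5 values were 10.1, 24.0, 22.0, 16.8 and 12.7 TPM for animals 48 to 52. In this transcript no Low 33 h animal lay within the range of the vehicle animals, 18.0 to 20.5 TPM, and the mean of 17.1 ± 5.89 averaged over values on both sides of it. In High 9 h it was at 11.7, 21.7, 9.64, 22.9 and 9.95 TPM in animals 38 to 42, and in Low 9 h at 26.4, 25.0, 12.9, 14.1 and 14.2 TPM in animals 33 to 37. All 10 of these dosed animals at 9 h were outside the vehicle range of 18.0 to 19.7 TPM, although L was -0.29 with the high dose and -0.02 with the low dose.

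ENSCPOT00000031798.1 had the next lowest L after ENSCPOT00000044366.1, at -1.42. It was at 5.53, 5.31, 5.99, 6.93 and 7.80 TPM in Vehicle 33 h and at 2.03, 1.19, 1.09, 1.26 and 3.05 TPM in High 33 h, 27.3% of vehicle by the means. Its High 33 h animals lay below all animals of Vehicle 33 h and Low 33 h. In High 9 h it was at 3.53, 11.2, 2.82, 8.88 and 2.89 TPM in animals 38 to 42, with animals 38, 40 and 42 below and animal 39 above the vehicle range of 5.15 to 8.90 TPM. Of those, animals 40 and 42 were below the highest High 33 h animal, 57.

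ENSCPOT00000041687.1 was at 53.6, 44.1, 46.7, 40.8 and 45.3 TPM in Vehicle 33 h and at 19.8, 15.4, 18.7, 22.4 and 16.8 TPM in High 33 h, 40.4% of vehicle. In Low 33 h it was at 22.7, 38.3, 56.2, 44.9 and 24.9 TPM in animals 48 to 52. Animals 48 and 52 lay just above the highest High 33 h animal. ENSCPOT00000048236.1 was at 24.0 ± 2.16 TPM (SD, n = 5) in Vehicle 33 h and at 10.5, 10.7, 11.1, 10.3 and 12.3 TPM in High 33 h, 45.7% of vehicle. Its lowest Low 33 h value, 12.7 TPM in animal 48, lay just above the High 33 h animals.

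Another 3 of the 10 members with the lowest L followed. ENSCPOT00000021016.2 was at 8.41, 10.3, 10.5, 11.0 and 15.9 TPM in Vehicle 33 h, at 9.15, 7.44, 15.8, 9.35 and 12.6 TPM in Low 33 h and at 4.48, 3.99, 4.37, 2.96 and 7.50 TPM in High 33 h, 41.5% of vehicle. Its highest High 33 h animal, 57, lay just above the lowest Low 33 h animal, 49. ENSCPOT00000047339.1, at 11024 bases the longest member, was at 22.3 ± 2.51 TPM (SD, n = 5) in Vehicle 33 h, 19.6 ± 5.07 in Low 33 h and 9.91 ± 1.75 in High 33 h. ENSCPOT00000036095.1 was low throughout, at 2.77, 2.04, 2.06, 2.05 and 3.79 TPM in Vehicle 33 h and at 0.713, 0.566, 0.526, 0.518 and 0.999 TPM in High 33 h, 26.1% of vehicle.

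The last pair of the 10 lowest L rested on few reads or on single animals. ENSCPOT00000039351.1 was at 1.92, 0, 1.32, 1.61 and 3.46 TPM in Vehicle 33 h and was listed at 0.947 TPM in animal 53 of High 33 h and at 0 in the other 4, with 21 estimated counts in animal 53. Listed values at or near 0 also occurred in Vehicle 9 h, Vehicle 33 h, Low 33 h and High 9 h, so its groups overlapped. ENSCPOT00000014140.3 was at 3.75, 3.41, 3.43, 4.51 and 10.7 TPM in Vehicle 33 h and at 2.24, 2.11e-07, 1.51, 3.22 and 1.83 TPM in High 33 h. The groups did not overlap, but animal 47 alone put the vehicle mean at 5.16 TPM.

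The 6 members at 100 TPM or more carry most of the summed level. ENSCPOT00000007878.3 had the highest level, with 647, 693, 729, 741 and 708 TPM in Vehicle 33 h and 404, 353, 418, 379.7 and 434 TPM in High 33 h, 56.5% of vehicle. In Low 33 h it was at 439.5, 1003, 884, 763 and 549 TPM, so that animals 48 and 52 lay below and animals 49, 50 and 51 above every vehicle animal. In High 9 h it was at 572, 834, 465, 868 and 488 TPM, with animals 38, 40 and 42 below the vehicle range of 694 to 916 TPM. ENSCPOT00000032717.1 had the same animals below vehicle in both groups, with 228, 504, 482, 391 and 259.8 TPM in Low 33 h and 276, 409, 239, 466 and 233 TPM in High 9 h. It was at 350.2 ± 15.9 TPM (SD, n = 5) in Vehicle 33 h and 189 ± 13.2 in High 33 h.

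ENSCPOT00000040995.1 was at 361, 461, 512, 494 and 497 TPM in Vehicle 33 h and at 233, 236, 238, 208 and 263 TPM in High 33 h, 50.7% of vehicle. In Low 33 h animal 48 was at 271 TPM and animal 49 at 583 TPM, with the other 3 between 351 and 375 TPM. ENSCPOT00000013722.3 was at 255, 248, 230.2, 259 and 314 TPM in Vehicle 33 h and at 143, 97.1, 129, 125 and 141 TPM in High 33 h. Its Low 33 h animals were close together except animal 48, at 172 TPM against 229 to 259 TPM in the other 4.

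The remaining 2 of the highest 6 differed in how cleanly High 33 h stood apart. ENSCPOT00000001230.3, at L = -0.80 just inside the limit, was at 266, 301, 304, 333 and 331 TPM in Vehicle 33 h, at 262, 338, 335, 255 and 325 TPM in Low 33 h and at 184, 137, 151, 153 and 252 TPM in High 33 h. At 9 h it was at 312 ± 36.2 TPM in Low and 300.2 ± 26.2 in High, against 293 ± 41.4 in Vehicle (SD, n = 5). It was the only member with an absolute L under 0.1 in all 3 other contrasts, and animal 57, at 252 TPM, came just under the lowest Low 33 h animal. ENSCPOT00000022936.2 was at 508, 470.2, 589.9, 364 and 324 TPM in Vehicle 33 h and at 159.6, 259.6, 211, 211 and 391 TPM in High 33 h. The groups overlapped through animal 57. A further 2 members, ENSCPOT00000010658.3 and ENSCPOT00000038060.1, complete the 10 highest, at 80.4 ± 18.4 and 42.7 ± 3.36 TPM in Vehicle 33 h and 39.7 ± 8.66 and 21.5 ± 3.07 TPM in High 33 h.

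**Figure D2:**
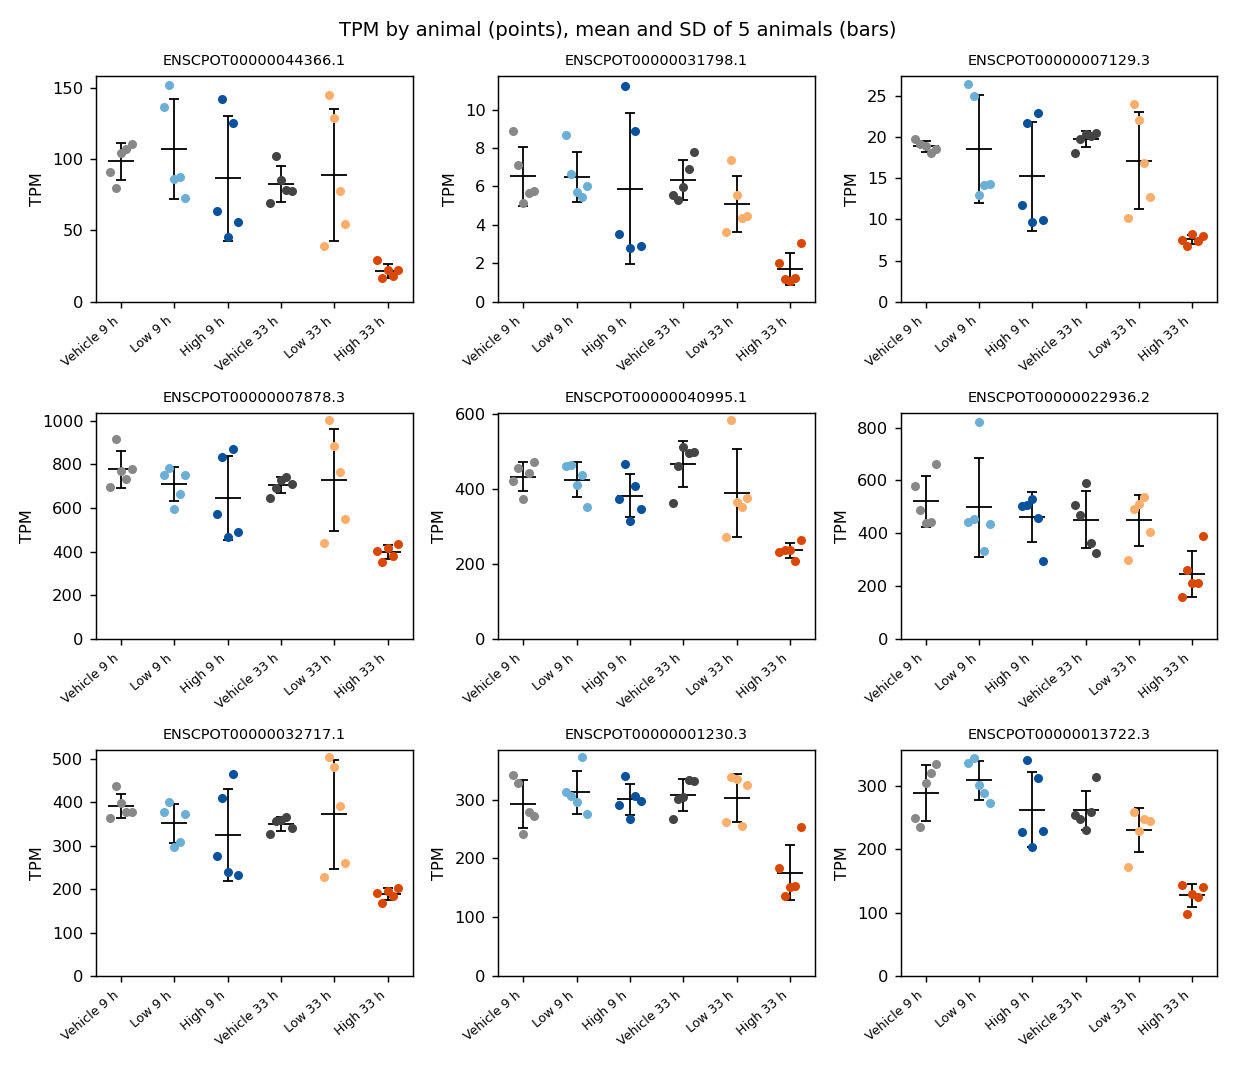
TPM (vertical axis, from 0) of 9 members in each of the 30 animals, by group, with bars for the mean and SD of 5 animals. The High 33 h mean sits lowest in each panel, while the Low 33 h and High 9 h points spread widely for ENSCPOT00000044366.1 (38.8 to 145 and 45.7 to 142) and ENSCPOT00000007878.3 (439.5 to 1003 and 465 to 868).

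Over all 38 members, the 5 High 33 h animals lay below the 5 Vehicle 33 h animals without overlap for 34, where 10.8% of all transcripts detected did so and 15% lay above. The exceptions were ENSCPOT00000039351.1, ENSCPOT00000034711.1, ENSCPOT00000022936.2 and ENSCPOT00000014786.3. In edgeR's quasi-likelihood test of the estimated counts, called at a Benjamini-Hochberg adjusted p of at most 0.1, 35 of the 37 members that passed a filter on low counts were lower in High 33 h, against 24.1% of all transcripts tested. Because the rule used this contrast, both counts are a description. ENSCPOT00000034711.1, at 0 to 4.41 TPM and 0 to 13 estimated counts, did not pass the filter, and ENSCPOT00000039351.1 and ENSCPOT00000014140.3 were not called.

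High 33 h was also set against Low 33 h, where both groups had entered the rule, so these counts are a description as well. The animals did not overlap for 24 members, against 4.47% of all transcripts detected (and 8.71% above, with no member), and edgeR placed 35 of 37 lower with the high dose, against 15% of all tested. Without animal 48 the groups did not overlap for 27 members, and without animal 52 for 28. Leaving out an animal cannot lower such a count, and the shares of all transcripts were not taken for these repeats. The next count is likewise a description, since the means of all 6 groups entered the rule. In 14 members every High 33 h animal was below all 25 others, against 1.07% of transcripts. These were ENSCPOT00000044366.1, ENSCPOT00000007129.3, ENSCPOT00000041687.1, ENSCPOT00000048236.1, ENSCPOT00000013722.3, ENSCPOT00000010658.3, ENSCPOT00000040995.1, ENSCPOT00000038060.1, ENSCPOT00000032717.1, ENSCPOT00000007878.3, ENSCPOT00000036095.1, ENSCPOT00000012103.3, ENSCPOT00000035750.1 and ENSCPOT00000047547.1.

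Within the flat limits, L was more often below than above 0, which is a description, since the rule used these values and both contrasts at 33 h share their vehicle animals. With the low dose at 33 h, 33 of the 38 members had L below 0 and the median was -0.18. With the high dose at 9 h the number was again 33 and the median -0.18, and with the low dose at 9 h it was 28 and the median -0.05. In the same order, 61.5%, 43.0% and 35.5% of the 9585 transcripts that could fall and were flat in the 3 contrasts had L below 0, with medians of -0.03, 0.03 and 0.06. That set was not chosen for a fall, so nothing is read from the difference. In at least 1 of the 3 contrasts, 19 members had an absolute L of 0.25 or more, and 9 stayed under 0.2 in all 3.

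Few members were called in the contrasts that the rule required to be flat. With the high dose at 9 h edgeR called 3 of 37 lower (15.9% of all transcripts tested), ENSCPOT00000035750.1, ENSCPOT00000047547.1 and ENSCPOT00000014884.3. Without animal 41 the count was 13, where 37.8% of all transcripts changed in either direction, and without animal 39 it was 8, where 36.2% did. With the low dose at 9 h it called ENSCPOT00000026951.2 and ENSCPOT00000035750.1 lower (11.3% of all tested), and 5 members without animal 33 or without animal 34 (28.7% and 25.3% of all changed in either direction), but 1 without vehicle animal 58 or 60 (15.9% and 17.1%). With the low dose at 33 h edgeR called 0 of 37 lower (0.421% of all tested) or higher (0.476%), 0 had an unadjusted p under 0.05 against 15.8% of all tested, and DESeq2 (7.51% of all transcripts called) and limma-trend (1.1%) also called 0. In edgeR 1 member was called when animal 49 was left out, where 10.5% of all transcripts were.

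ENSCPOT00000035750.1 was the member called lower with either dose at 9 h. It was at 10.7, 14.4, 10.5, 10.7 and 11.3 TPM in Vehicle 9 h and between 7.30 TPM in animal 36 and 10.5 TPM in animal 34 of Low 9 h, the only member whose Low 9 h and vehicle animals did not overlap (1.74% of all transcripts lower, 6.95% higher). In High 9 h it was at 8.32, 9.93, 9.59, 10.8 and 7.75 TPM, where no member was without overlap (3.59% of all transcripts lower, 6.77% higher). At 33 h it was at 12.2 ± 0.668 TPM in Vehicle, 10.6 ± 2.25 in Low and 5.81 ± 0.578 in High (SD, n = 5). No member was without overlap with the low dose at 33 h (2.21% lower, 0.699% higher).

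The label of a fall at the high dose only held for group means and not for each animal. For each animal, the difference of each member from the vehicle mean of its time was taken on the log2(TPM + 1) scale. In Low 33 h the median over the 38 members was -0.60 in animal 48 and -0.44 in animal 52, and 0.07, -0.03 and -0.06 in animals 49, 50 and 51. Animal 48 was below the vehicle mean for 37 members and at or below -0.8 for 9, and animal 52 was below it for 36 and at or below -0.8 for 2. Both stood apart from the other 3 animals of their group but above all 5 animals of High 33 h, where animals 53 to 57 were at -0.99, -1.13, -1.02, -1.04 and -0.79 and below the vehicle mean for all 38.

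The high dose at 9 h showed a similar spread. Animals 38, 40 and 42 had medians of -0.34, -0.40 and -0.47, and animals 39 and 41 of 0.13 and 0.07. In animal 42, 9 members were at or below -0.8. The low dose at 9 h ranged less, from -0.27 in animal 36 and -0.10 in animal 37 to 0.07 in animal 34. The vehicle animals lay between -0.10 and 0.11 at 9 h, a range that held 4 of the 5 Low 9 h animals, and between -0.09 and -0.01 at 33 h. That range depended on the scale. With TPM rescaled by TMM factors, the vehicle animals at 9 h lay between -0.06 and 0.07. Low 9 h animals 33 and 34 were then inside this range, at -0.05 and -0.01. Animals 35, 36 and 37 were below it, at -0.22, -0.34 and -0.25.

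**Figure D3:**
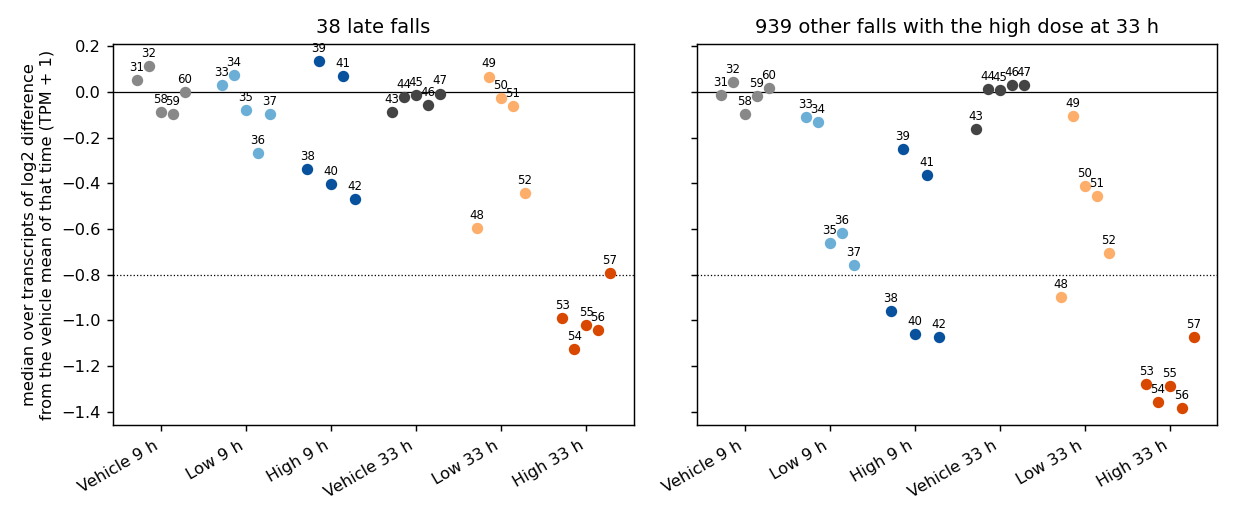
Median over transcripts of the log2 difference of each animal from the vehicle mean of its time (vertical axis, TPM + 1), by group, each point labelled with the animal's number, for the 38 members (left) and the other 939 falls (right). Dotted lines mark -0.8. Animals 48 and 52 (-0.60 and -0.44) and animals 38, 40 and 42 (-0.34, -0.40 and -0.47) lie below the rest of their groups in the left panel, and the same animals are lowest in the right panel.

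Counts of members below the vehicle range set the same animals of Low 33 h and High 9 h apart. Animal 48 was below all 5 vehicle animals for 31 of 38 members (27.9% of the 16869 transcripts that could fall) and animal 52 for 27 (29.1%), but animals 49, 50 and 51 for 7 (29.5%), 7 (30.4%) and 9 (17.3%). In High 9 h the counts were 21, 2, 22, 5 and 23 for animals 38 to 42, where 21.9%, 9.31%, 24.6%, 18.9% and 28.4% of the transcripts that could fall were that low. In Low 9 h they were 3, 2, 7, 17 and 12 for animals 33 to 37, where the shares were 10.2%, 8.89%, 16.7%, 24.0% and 18.6%. High 33 h animals were below all vehicle animals for 35 to 37 members, where the shares were 24.4% to 34.2%.

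In Low 33 h and High 9 h the other 939 falls with the high dose at 33 h had the same lowest and the same highest animal as the members, at lower values. Their medians in Low 33 h were -0.90, -0.11, -0.41, -0.45 and -0.71 for animals 48 to 52, and in High 9 h -0.96, -0.25, -1.06, -0.36 and -1.07 for animals 38 to 42. In High 33 h they were between -1.38 and -1.07, with animal 57 highest, as it was for the members. Animal 48 was the lowest of Low 33 h in 25 of the 38 members and in 72.3% of the other falls, against 20.7% of the other transcripts that could fall. Total estimated counts in Low 33 h were 28626476, 28450388, 28861404, 25222566 and 28525454 in animals 48 to 52. In High 9 h they were 33446127, 25560645, 32777523, 25424037 and 23134713 in animals 38 to 42, so animals 38 and 40 had the deepest libraries of their group and animal 42 the shallowest. The part of depth in these differences was not tested.

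Within groups the members varied more than the other transcripts that could fall. The median coefficient of variation over members was 29.1% in Low 33 h and 26.1% in High 9 h, against 13.7% and 14.9% for the other transcripts that could fall. In Vehicle 9 h and Vehicle 33 h it was 15.6% and 15.3%, against 13.5% and 10.9%, and in High 33 h 17.4%, against 10.5%. The difference from these other transcripts was widest in the 2 groups in which single animals lay apart. The coefficient was not taken over the other falls with the high dose at 33 h, whose medians also spread widely among the animals of these 2 groups.

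**Figure D4:**
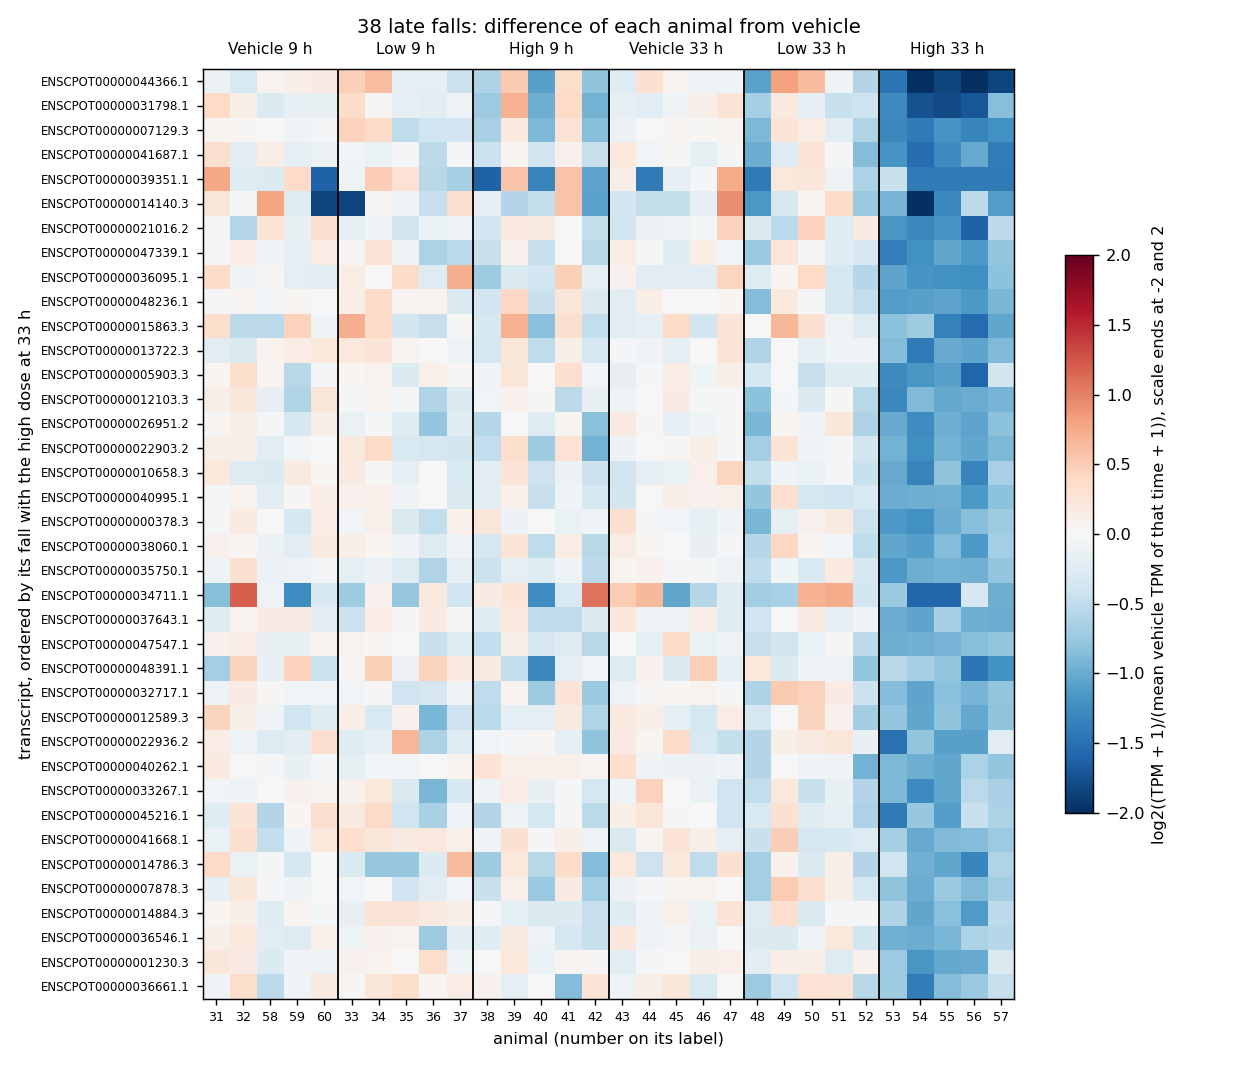
Difference of each of the 30 animals (columns, by group) from the mean TPM of the vehicle animals of its time, for each of the 38 members (rows, lowest L with the high dose at 33 h at the top), on the log2(TPM + 1) scale with colors from -2 (blue) to 2 (red). The 5 High 33 h columns are blue throughout, and the columns of animals 48 and 52 in Low 33 h and 38, 40 and 42 in High 9 h are blue for most members.

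Members also varied together among animals of the same group. After the group means were removed, the median Pearson's r over the 703 pairs of members was 0.32, with 26.7% of pairs above 0.5, across the 30 animals. Pairs of the other transcripts that could fall had a median of 0.10 and 6.95% above 0.5, and pairs of the other 939 falls 0.46 and 45.2%. These are descriptions, since all pairs share the same libraries and the same 30 animals. The highest r, 0.98, joined ENSCPOT00000032717.1 and ENSCPOT00000007878.3. Both had fractional estimated counts, as when reads are divided among similar transcripts (11815.4 and 9791.67 in animal 31 of Vehicle 9 h). Whether they share reads was not checked. ENSCPOT00000007129.3 followed, with 0.94 to ENSCPOT00000022903.2 and 0.91 to ENSCPOT00000044366.1. The lowest, -0.45, joined ENSCPOT00000048391.1 and ENSCPOT00000022936.2, so the members did not vary as a single block.

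The animals given vehicle were compared between times, a contrast the rule did not use, although both vehicle means entered it. edgeR called 0 of 37 members and 0 of all 19729 transcripts tested (0% in each direction) at an adjusted p of at most 0.1. At an unadjusted p under 0.05 it had 8 of the 37, against 11.7% of all transcripts, and the members' median log2 fold change from 9 to 33 h was -0.14, against 0.00 over all tested. DESeq2 called 4 members lower (1.67% of all transcripts it tested) and 1 higher (1.29%), and limma-trend called 0 (0.0405% of all). No member had vehicle groups without overlap, against 0.197% of transcripts lower and 2.06% higher at 33 h.

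The scale of the libraries bore on the label. In vehicle animal 59, 13.7% of estimated counts came from 1 transcript, in vehicle animal 58 it was 4.76% and in High 33 h animal 53 it was 4.97%. A transcript with a large share of TPM lowers the TPM of all others in its library, but that share also depends on its length. The TMM factor of animal 53 was 1.02, and the part of these transcripts in the factors was not tested. When TPM was rescaled by TMM factors (0.819 for animal 59, 0.887 for animal 58 and 1.02 to 1.08 for the High 33 h animals), the median shift in L over the transcripts that could fall was, at 9 h, -0.10 for Low and -0.11 for High, and at 33 h -0.02 for Low and -0.09 for High. The members' median L was then -0.16 and -0.31 at 9 h and -0.19 and -1.05 at 33 h. Relative to the median of all transcripts that could fall, it was -0.24 with the high dose at 9 h on the TPM scale and -0.26 after rescaling, and -0.13 and -0.15 with the low dose. On the rescaled values 20 members had L of at most -0.3 with the high dose at 9 h, 6 with the low dose at 9 h and 3 with the low dose at 33 h.

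Membership rested on limits and on single animals. Just inside the limit of -0.8 lay ENSCPOT00000036546.1, ENSCPOT00000001230.3 and ENSCPOT00000036661.1, all at L = -0.80, with High 33 h means of 17.4, 176 and 2.70 TPM against vehicle means of 31.2, 307 and 5.46 TPM. Just outside lay ENSCPOT00000015901.3 and ENSCPOT00000003758.2, also -0.80 when rounded, and ENSCPOT00000007297.3 at -0.79, with 21.8, 12.9 and 2.85 TPM against 38.6, 23.2 and 5.67 TPM. Leaving out 1 animal at a time, 24 to 58 transcripts met the rule. The number was 24 without High 9 h animal 39 or Low 33 h animal 49, 25 without High 9 h animal 41, and 58 without Low 33 h animal 48. In all 30 repeats 4 members met it, ENSCPOT00000021016.2, ENSCPOT00000015863.3, ENSCPOT00000013722.3 and ENSCPOT00000038060.1, and the other 34 were lost at least once.

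**Figure D5:**
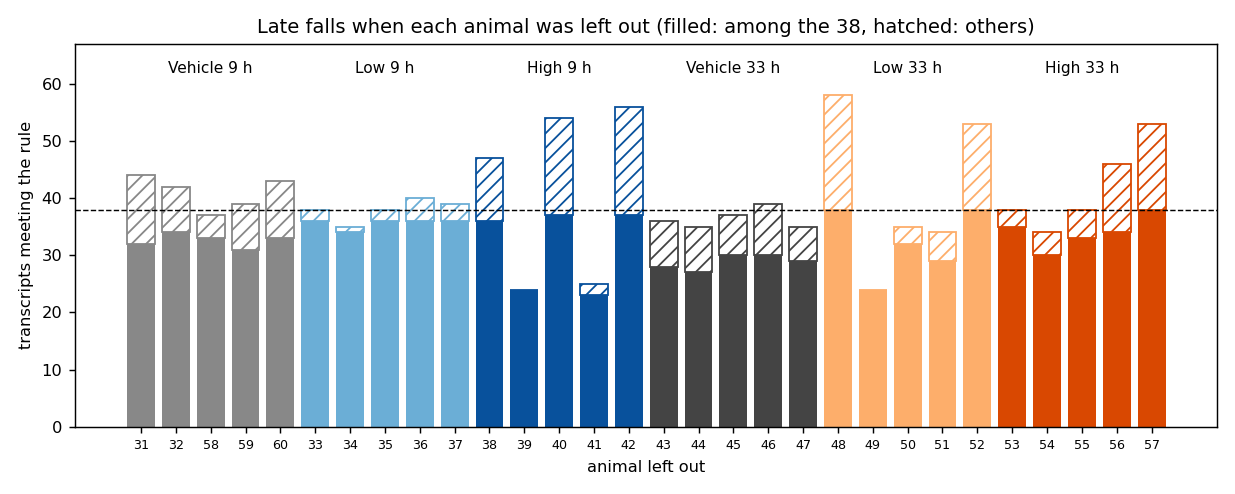
Number of transcripts that met the rule (vertical axis) when each animal (horizontal axis, by group) was left out, filled for the 38 members and hatched for other transcripts, with a dashed line at 38. The lowest bars, 24, 24 and 25, are without animals 39, 49 and 41, and the highest, 58, is without animal 48.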

How the data were processed

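Frozen whole kidneys were powdered, and stranded poly-A libraries of total RNA were sequenced as paired ends. The authors pseudo-aligned the reads to the Ensembl guinea pig transcriptome with kallisto (version 0.42.4 in the submitters' processing notes) and deposited estimated counts and TPM values of 25824 transcripts for each of the 30 animals. The release of the transcriptome is not given in the sources used here. Without normalization by the authors, the estimated counts reflect each library's depth, and the deposited TPM values are scaled for effective length and to a fixed total, so 1 abundant transcript lowers all others. Kallisto divides reads among similar transcripts, so values of close copies are uncertain. Total estimated counts were 23134713 to 36072327 per animal.

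Groups came from the sample labels, and the number at the end of an animal's label names it. The labels name animals but no other separate unit, so n is the number of animals. TPM gave L with 1 added to each mean. Estimated counts were rounded, and in R 4.3.3 edgeR 4.0.16 (filterByExpr over 6 groups, TMM, glmQLFit and glmQLFTest, with the compared groups only) tested 19729 transcripts, 37 of them members. Alternatives were DESeq2 1.42.0, RLE normalization, limma-trend (limma 3.58.1), a threshold of 0.05 for the adjusted p, a fit over all 30 animals, no filter beyond 1 count, other pseudocounts, medians, other scales and limits, and each animal left out. The study names Sleuth as its test, which was not used here. The edgeR step was tested on simulated data. Correlations used deviations of log2(TPM + 1) from group means.

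The members, lists and limits were chosen with earlier results of these data known. Named transcripts are the 10 members with the lowest L, the 10 with the highest Vehicle 33 h level, the 3 nearest each side of the limit, and transcripts edgeR called between vehicle times, of which there were none. Others are named where a count of few members or an exception is given, after their values were seen. Lists of genes and cell types by symbol could not be used, because a table of guinea pig genes (assembly mCavPor4.1) held no Ensembl identifiers. For the same reason no sequence is shown.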

Additional observations from a re-analysis of the deposited data

Results flagged for a closer look

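In each group of 5 animals, the values of each of the 18 members with the lowest L or the highest level and the animals' medians over all 38 members were looked at again where 1 value stood apart, that is where its gap to the nearest other value exceeded 0.71 of the group's range. This held for 4 of 114 groups checked, where about 5.7 would be expected by chance at 1 in 20. ENSCPOT00000041687.1 was at 32.4 TPM in animal 36 of Low 9 h, and the nearest other animal was at 43.0 TPM. ENSCPOT00000022936.2 was at 822 TPM in animal 35 of Low 9 h, and the nearest was at 454 TPM. ENSCPOT00000039351.1 was at 0.947 TPM in animal 53 of High 33 h and listed at 0 in the other 4 animals. ENSCPOT00000014140.3 was at 10.7 TPM in animal 47 of Vehicle 33 h, and the nearest was at 4.51 TPM.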

How the results depend on the processing

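The number of transcripts meeting the rule was 38. It was 74 with 0.1 added to the means and 17 with 5 added, 133 and 16 with limits of -0.6 and -1 for the fall, and 9 and 115 with flat limits of 0.2 and 0.4. With each animal left out it ranged from 24 to 58. Medians in place of means gave 31 transcripts, of which 14 were among the 38, TMM-rescaled TPM 26, of which 15 were, and CPM 47, of which 20 were. With the high dose at 9 h, 3 members were called in edgeR, 6 in DESeq2 (36.3% of all transcripts it tested), 5 with RLE (32.7%) and 5 in limma-trend (33.9%), and 2 to 13 with an animal left out (22.7% to 37.8%). With the low dose at 9 h the counts were 2 in edgeR, 4 in DESeq2 (27.6%), 1 with all 30 animals in one fit (27.7%), 1 at an adjusted p of 0.05 (13.9%), and 1 to 5 with an animal left out (13.9% to 28.7%). With the low dose at 33 h 0 were called, and 0 to 1 with an animal left out (0.0558% to 10.5%). Between vehicle times 0 were called in edgeR, 5 in DESeq2 (2.96%), and 0 to 0 with an animal left out (0% to 0.177%). The number lower with the high dose at 33 h was 35 to 36 against vehicle (22.3% to 23.6% of all transcripts) and 33 to 35 against the low dose (11.4% to 16.6%) with an animal left out. Chosen after the data were seen, the use of vehicle animals 31 and 32 alone at 9 h gave 26 transcripts by the rule, 0 calls for the high dose (0.634% of all transcripts called) and 0 for the low dose (0.228%). Animals 58, 59 and 60 alone gave 51 by the rule, 2 (24.3%) and 2 (14.7%) calls for the doses, and 4 between vehicle times (3.09%). The causes of these differences were not tested. L with the high dose at 33 h was also taken on the CPM scale for the 18 members with the lowest L or the highest level. There 16 of the 18 moved by less than the spread between animals, ENSCPOT00000007129.3 moved to -1.40, ENSCPOT00000036095.1 moved to -1.36, and 0 changed sign. In the other contrasts, some values of L near 0 did change sign, such as ENSCPOT00000013722.3 with the low dose at 9 h (0.10 to -0.02). No paired analysis was possible because the animals' numbers are not shared between groups. ENSCPOT00000034711.1 did not pass the filter on low counts, and values of 0 TPM are listed values that may be failed estimates.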
